A study of Mus musculus with 4 samples.

Results

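Long noncoding RNAs that are known mainly from the nucleus were followed in cytoplasmic RNA of mouse cells after knockdown of 4.5SH. The 8 RNAs were Malat1, Neat1, Meg3, Rian, Mirg, Miat, Kcnq1ot1 and Snhg11. Every probe set whose array annotation gave 1 gene symbol, that symbol being one of these RNAs, was taken, whether bright or dim. This gave 36 of the 45101 probe sets on the array, for 8 of 18193 gene symbols. Meg3 had 11 probe sets, Malat1 had 7, Kcnq1ot1 had 6, Rian had 4, and Neat1, Mirg, Miat and Snhg11 had 2 each.

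The cells were Neuro2A, a mouse neuroblastoma line, and 4.5SH is a short rodent RNA made by RNA polymerase III that resembles B1 repeats in sequence. The knockdown group held 2 arrays of cells in which 4.5SH was depleted with antisense oligonucleotides, and the control group held 2 arrays of cells labelled only as control. Per the labels' protocols, transfection used 30 nM oligonucleotides in both groups, the fraction measured was the supernatant after mild lysis, and the labelled material came from 200 ng of poly(A)+ RNA. The labels do not name the oligonucleotide of the control cells, so loss of 4.5SH and other effects of the oligonucleotides cannot be told apart. The level of 4.5SH itself and the nuclear fraction were not analysed here. The stated purpose was to find individual genes with an antisense B1 element that 4.5SH acts on. The replicates are labelled biological, but nothing says that they came from separate cultures, so each p-value reflects only how far these arrays spread, which may be technical.

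Malat1 is an abundant RNA that gathers in nuclear speckles, bodies rich in splicing factors. Neat1 is the scaffold on which paraspeckles are built, and its gene lies next to that of Malat1. Meg3, Rian and Mirg are transcribed in one direction from the maternal chromosome of the imprinted Dlk1-Dio3 domain, where Rian carries small nucleolar RNAs and both Rian and Mirg carry microRNAs. Kcnq1ot1 is made from the paternal chromosome and silences its imprinted neighbours in cis. Miat, also called Gomafu, forms nuclear spots in neurons, and Snhg11 is the host of small nucleolar RNA genes.

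In the RefSeq annotation of GRCm38.p6, Malat1 lies at chr19:5795690-5802672 and Neat1 at chr19:5824708-5845480. Meg3 lies at chr12:109540996-109571729, Rian at chr12:109603945-109661716 and Mirg at chr12:109734981-109749458. Miat lies at chr5:112213228-112228948, Kcnq1ot1 at chr7:143213111-143296547 and Snhg11 at chr2:158375713-158386474. All 8 are annotated there as lncRNA genes, and where within them each probe set binds was not analysed here.

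RefSeq places 28 mature microRNAs inside 3 of these genes, 19 in Mirg, 6 in Rian and 3 in Meg3, and none inside the other 5. A few are shown because they are encoded within the transcribed regions of Meg3, Rian and Mirg, although the arrays did not measure the microRNAs themselves. They are written 5′ to 3′ with the seed, bases 2 to 8, in capitals. The first comes from Meg3, the second from Rian and the others from Mirg, all on the plus strand of chromosome 12.
mmu-miR-770-5p: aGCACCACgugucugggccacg
mmu-miR-370-3p: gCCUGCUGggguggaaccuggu
mmu-miR-453: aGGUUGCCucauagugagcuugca
mmu-miR-496a-5p: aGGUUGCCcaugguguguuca
mmu-miR-154-5p: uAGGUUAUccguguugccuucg
mmu-miR-410-3p: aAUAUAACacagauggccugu
The seed of miR-453 and miR-496a-5p is the same, and it is the 1 seed shared among the 28.

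Values are deposited MAS5 signals, in arbitrary units, and differences are knockdown minus control on the log2(signal + 16) scale. That scale understates the change of dim probe sets. Errors written after ± come from the limma fit as standard errors, except where SD is written. Median signals were 17.1 and 18.2 on the knockdown arrays, against 18 and 18.3 on the control arrays, and 2% trimmed means were 128 and 132 on the knockdown arrays, against 149 and 143 on the control arrays. The median difference was -0.11 over all 22525 tested probe sets, and it was -0.00108 after quantile scaling of the arrays and -0.25 after centring on 9 spike-in probe sets, so small differences depend on the scaling. Of 12 sympathetic neuroblastoma markers 10 had a probe set and 8 passed the signal filter, with Phox2a, Hand2, Gata2 and Stmn2 above a signal of 670 on every array, whereas Gata3 and Th were below the filter. Of the markers of other cells, 5 of 5 for fibroblasts, 3 of 3 for macrophages, 2 of 4 for glia and 2 of 2 for endothelium had a probe set. Summed over those probe sets, 1 for each marker, signals in the knockdown and the control were 97.4 to 109.9 and 81 to 96.7 for fibroblasts, 400.2 to 410.9 and 709.7 to 789 for macrophages, 41.1 to 53.4 and 36.7 to 42.1 for glia, and 76.3 to 83.7 and 130.3 to 159.7 for endothelium. Of these markers Ptprc, Col1a1, Col3a1, Lum and Cdh5 were below the filter, whereas Cd68, Csf1r, Pecam1, Dcn, Pdgfra, Sox10 and Gfap were tested. Cd68 (-0.94, adjusted p = 5.89e-06, limma) and Pecam1 (-0.88, adjusted p = 0.000551, limma) were lower in the knockdown. Sox10, which passed the filter only through the knockdown arrays, was higher (0.76, adjusted p = 0.0263, limma). Csf1r, Dcn, Pdgfra and Gfap did not pass the threshold. The part of these shifts in the results was not tested.

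Of the 36 probe sets 9 had a mean signal over the 4 arrays at or above the median of the array, 16.925, and were tested. They were 5 for Malat1, 2 for Neat1, 1 for Meg3 and 1 for Miat. The dimmest of them, 1 of Malat1 and 1 of Meg3, had a mean signal of 17.0, and the brightest one left out, of Meg3, had 11.5. Malat1 1418189_s_at and 1427285_s_at, Neat1 1442881_at, Meg3 1439380_x_at and Miat 1455325_at had control means of 9.15 to 16.25, below the filter. They were tested only because their knockdown means, of 20.05 to 32.75, were above it. With no rise from such a control mean a probe set would not have been tested. At a Benjamini-Hochberg adjusted limma p under 0.05, 4 of the 9 passed, 1 higher and 3 lower in the knockdown, where 35.6% of all tested probe sets passed, 9.76% higher and 25.8% lower. The 4 were 3 probe sets of Malat1 and 1 of Neat1. Over all 36 probe sets 16 were higher, 19 lower and 1 equal, with a median difference of -0.011, against -0.047 over all 45037 probe sets. The arrays of the groups did not overlap at 15 of the 36, 9 higher and 6 lower, where 50.7% of all probe sets did not overlap, 19.5% higher and 31.3% lower.

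**Figure D1:**
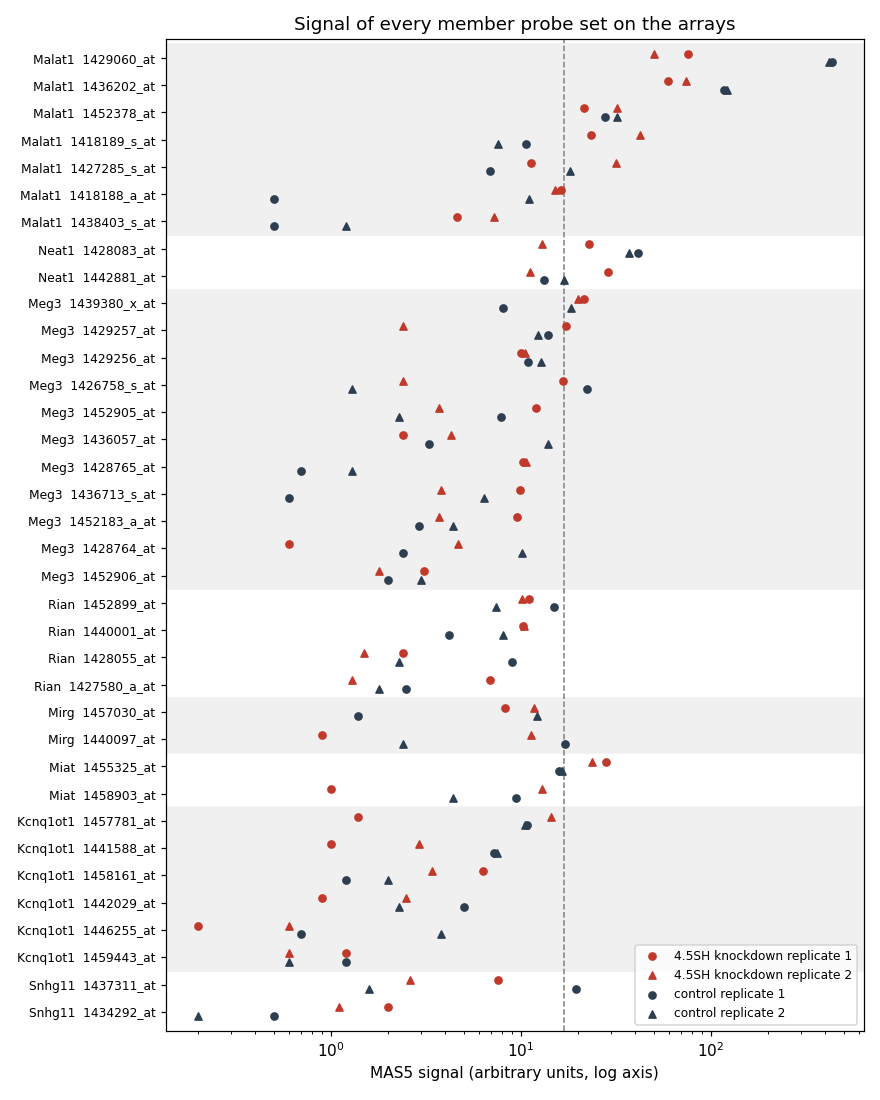
Each row is a probe set of the 8 RNAs and each point its MAS5 signal on 1 array (log axis, arbitrary units), with red for the 4.5SH knockdown and dark blue for the control, and circles and triangles for replicates 1 and 2. The dashed line is the signal filter at 16.925, which was applied to the mean over the 4 arrays. At Malat1 probe set 1429060_at the knockdown arrays lie at 76.1 and 50.2 and the control arrays at 433.8 and 417.2, and most other rows hold signals under 25.

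**Figure D2:**
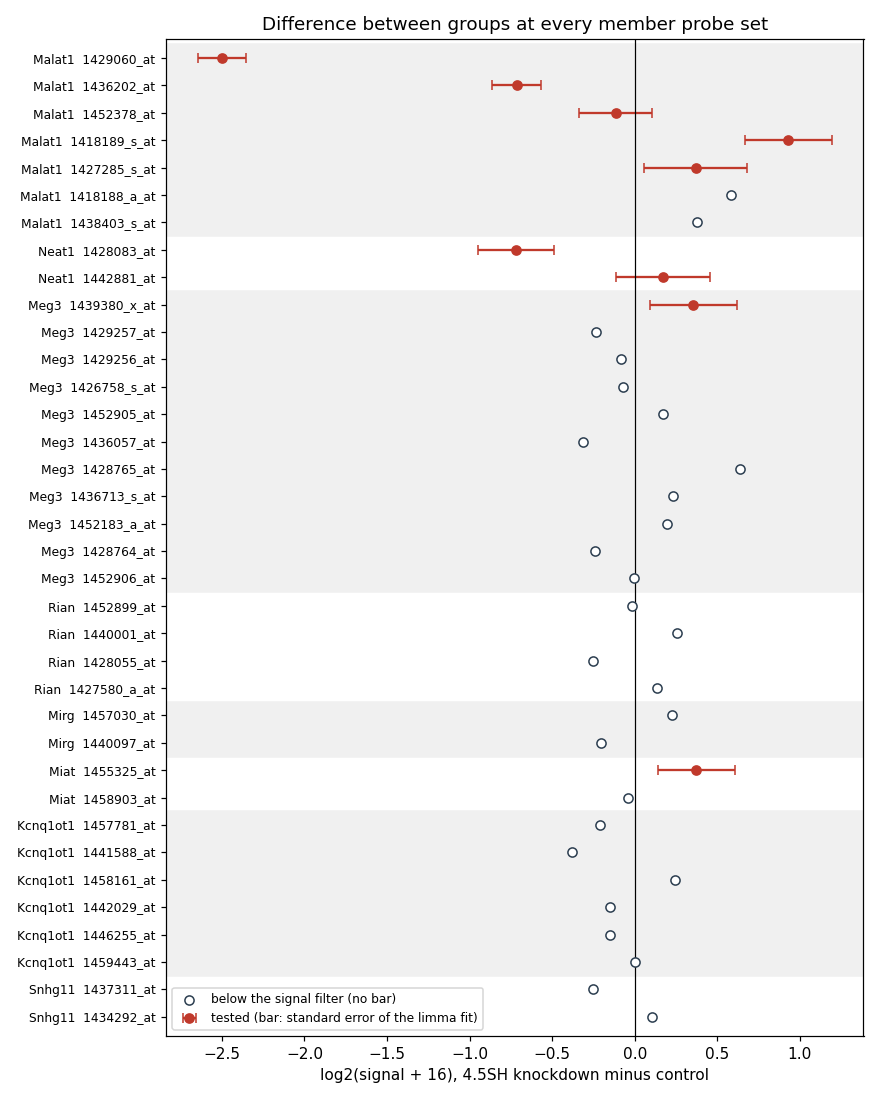
Each row is a probe set of the 8 RNAs and its position is the difference on the log2(signal + 16) scale, knockdown minus control. Filled red points are the 9 tested probe sets with the standard error of the limma fit as bars, and open points are the 27 below the filter, without bars. The Malat1 rows run from -2.50 to 0.93, and the 27 open points lie between -0.38 and 0.64.

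Malat1 fell at its 2 brightest probe sets, while the signal of 1 dimmer probe set, with probes that match several transcripts, rose. At 1429060_at, its brightest, the signal was 76.1 and 50.2 in the knockdown, against 433.8 and 417.2 in the control. Both knockdown arrays were far below both control arrays. The mean of the knockdown arrays was 63.15 ± 18.3 and that of the control arrays 425.5 ± 11.7 (SD, n = 2 each), a signal 6.74-fold lower. On the log2 scale Malat1 fell there by 2.50 ± 0.15 (adjusted p = 9.75e-08, limma), the 6th lowest difference of the 22525 tested probe sets. With the pseudocount the lowest difference possible from this control level was -4.79. Several readings cannot be told apart in bulk poly(A)+ RNA of 1 fraction. They include less of the RNA per cell, fewer cells that hold it and another split between nucleus and cytoplasm. Malat1 outside the poly(A)+ RNA was not measured.

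At 1436202_at Malat1 also fell, by less. Signals were 59.7 and 74.2 in the knockdown, against 117.5 and 121.9 in the control. The groups did not overlap, and the signal fell by 0.72 ± 0.15 (adjusted p = 0.00189, limma). Both falls passed under every alternative in which the probe set was tested, with differences of -2.76 to -1.95 at 1429060_at over 16 alternatives and of -0.86 to -0.49 at 1436202_at over 15.

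At 1452378_at the groups overlapped. Signals were 21.5 and 32.2 in the knockdown, against 27.9 and 32.3 in the control, and the difference of -0.12 ± 0.22 did not pass (adjusted p = 0.727, limma). The lowest difference possible on this scale from its control level was -1.53.

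At 1418189_s_at the signal was higher in the knockdown. It was 23.3 and 42.2 in the knockdown, against 10.7 and 7.6 in the control. The groups did not overlap, although the knockdown arrays differed more from each other than the control arrays did. The control mean of 9.15 was below the filter of 16.925, so this probe set was tested only through the knockdown arrays. With no rise from that level it would not have been tested. The rise of 0.93 ± 0.26 passed (adjusted p = 0.0136, limma), but it did not pass at a threshold of 0.01, without knockdown replicate 2 (0.65, adjusted p = 0.169), without control replicate 2 (0.84, adjusted p = 0.0521) or in the fit with no signal filter (adjusted p = 0.0971). What else its probes bind was not analysed here, so a rise of Malat1 itself is not shown. Its size moved with the pseudocount, to 1.69 with 1 and 0.40 with 64.

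At 1427285_s_at signals were 11.3 and 31.7 in the knockdown, against 6.9 and 18.1 in the control. The groups overlapped, and the difference of 0.37 ± 0.31 did not pass (adjusted p = 0.394, limma). The other 2 probe sets were below the filter. At 1418188_a_at signals were 16.3 and 15.1 in the knockdown, against 0.5 and 11.1 in the control, a difference of 0.58. At 1438403_s_at they were 4.6 and 7.2 in the knockdown, against 0.5 and 1.2 in the control, a difference of 0.38. At both of these dim probe sets each knockdown array was above each control array.

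The 7 Malat1 probe sets were also set against their names. The array's maker ends a name in _a_at or _s_at where the probes match several transcripts and uses plain _at for probes meant for 1 transcript. Of the Malat1 probe sets, 3 of 3 ending in plain _at were lower and 4 of 4 ending in _a_at or _s_at were higher, also counting those that did not pass. Of these 7 directions 2 did not hold: 1452378_at was 0.066 without knockdown replicate 1 and 0.016 with arrays centred on tested probe sets, and 1427285_s_at was -0.034 without knockdown replicate 2. The 3 plain probe sets were also the brightest, with mean signals of 28.5 to 244.3, against 3.4 to 20.95 for the other 4. From their control levels those 4 could show no difference below -0.80. Kind of probe set and brightness therefore cannot be told apart here. The split was seen after the values were known and was given no test. The other transcripts that the shared probes could match were not analysed here.

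Calls in opposite directions within 1 gene were not limited to Malat1. Of 5189 genes with 2 or more tested probe sets, 97 (1.87%) had at least 1 called higher and 1 called lower. Among the 276 genes with 5 or more tested probe sets, as Malat1 has, there were 28 (10.1%).

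Probe sets of 1 gene were then compared directly. For each tested probe set of a gene the log2(signal + 16) value of the gene's brightest tested probe set was subtracted within each array, which leaves a log2 ratio of 2 probe sets that does not depend on how arrays are centred. The difference of that ratio between the groups was fitted with limma over all 8440 such pairs on the array. Of all pairs 10.3% passed. All 4 Malat1 pairs share the values of 1429060_at and are not independent of each other.

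The pseudocount sets a floor under what dim probe sets can show, and for 3 of the 4 Malat1 pairs it fixed the outcome. From their control levels the lowest differences possible were -0.65 at 1418189_s_at, -0.80 at 1427285_s_at and -1.53 at 1452378_at, so none of them could have followed the -2.50 at 1429060_at. Given that fall, their pair differences could not be below 1.85, 1.69 and 0.97 in the same order. That these 3 pairs passed therefore says little about unequal change, and their values are given as a description.

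The ratio of 1418189_s_at to 1429060_at was -1.23 and -0.19 in the knockdown, against -4.07 and -4.20 in the control, a difference of 3.43 ± 0.32. For 1427285_s_at over 1429060_at the ratio was -1.75 and -0.47 in the knockdown, against -4.30 and -3.67 in the control, a difference of 2.87 ± 0.39. For 1452378_at over 1429060_at it was -1.30 and -0.46 in the knockdown, against -3.36 and -3.16 in the control, a difference of 2.38 ± 0.29. All 3 ratios were higher on both knockdown arrays than on both control arrays.

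The pair of probe sets that both fell was free of that limit, since 1436202_at could have shown a difference as low as -3.08. The ratio of 1436202_at to 1429060_at was -0.28 and 0.45 in the knockdown, against -1.75 and -1.65 in the control. The difference was 1.78 ± 0.24 (adjusted p = 0.00223, limma), so the signals of the 2 brightest Malat1 probe sets fell by unequal amounts. Whether parts of the RNA changed unequally was not tested. This pair did not pass without an intensity trend in the limma fit (adjusted p = 0.0751), where 4 of all 8440 pairs passed.

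**Figure D3:**
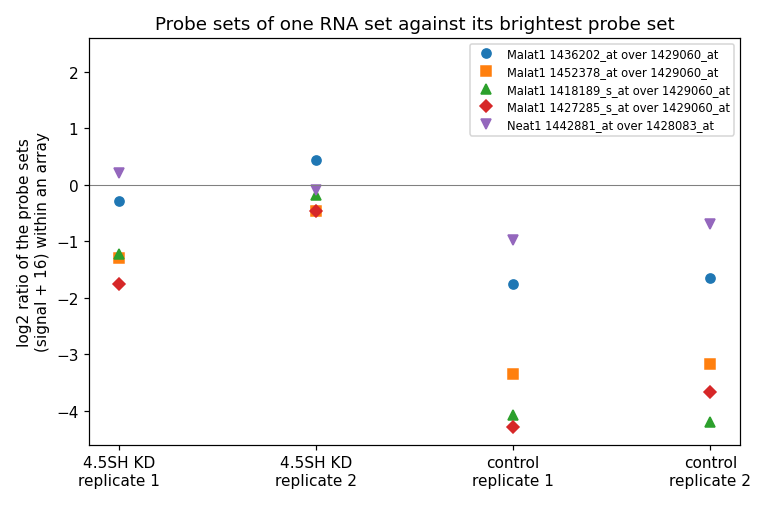
Each point is the log2 ratio of 2 probe sets of 1 RNA within 1 array, for the 2 knockdown arrays on the left and the 2 control arrays on the right. The 4 Malat1 ratios, all over 1429060_at, lie between -1.75 and 0.45 in the knockdown and between -4.30 and -1.65 in the control.

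**Figure D4:**
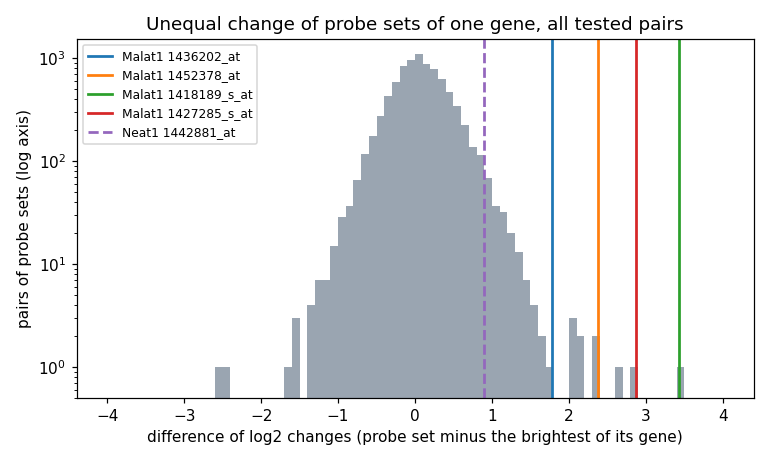
The histogram shows how many of the 8440 pairs of probe sets of 1 gene (log axis) had each difference of log2 changes, the change of a probe set minus that of the brightest probe set of its gene, knockdown minus control. The vertical lines mark the 4 Malat1 pairs, at 1.78 to 3.43, of which the 3 at 2.38 to 3.43 could not lie below 0.97 to 1.85 on this scale, and the Neat1 pair, at 0.89.

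Neat1 fell at the brighter of its 2 probe sets. At 1428083_at signals were 22.8 and 12.9 in the knockdown, against 41.2 and 37.2 in the control. Both knockdown arrays were below both control arrays. The difference of -0.72 ± 0.23 passed (adjusted p = 0.0243, limma) but was not firm. It did not pass at a threshold of 0.01, after centring on the tested probe sets (-0.59, adjusted p = 0.0688, limma) or with no filter (adjusted p = 0.146, limma). Nor did it pass without knockdown replicate 2 (-0.51), without control replicate 1 (-0.67) or without control replicate 2 (-0.77). With a pseudocount of 1 the difference was -1.14 and with 64 it was -0.34, and both passed. As for Malat1, Neat1 outside the poly(A)+ RNA was not measured.

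At 1442881_at the signal of Neat1 was 28.9 and 11.2 in the knockdown, against 13.2 and 17.0 in the control. The groups overlapped, with the 2 knockdown arrays as the highest and the lowest, and the difference of 0.17 ± 0.28 did not pass (adjusted p = 0.680, limma). The ratio of 1442881_at to 1428083_at was 0.21 and -0.087 in the knockdown, against -0.97 and -0.69 in the control. That difference of 0.89 ± 0.33 did not pass over all pairs (adjusted p = 0.109, limma), so a different change at the 2 Neat1 probe sets was not shown.

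The RNAs of the Dlk1-Dio3 domain were dim. Their 17 probe sets had signals of 0.6 to 22.2 on single arrays, and 1, of Meg3, was tested. This was 1439380_x_at, whose ending marks probes that resemble other sequences. Its signals were 21.6 and 20 in the knockdown, against 8.1 and 18.3 in the control. The knockdown arrays were both above the control arrays, but control replicate 2 was close to them, and the difference of 0.36 ± 0.26 did not pass (adjusted p = 0.328, limma). Of the 17 probe sets 8 were higher and 9 lower, between -0.32 and 0.64, so the 3 RNAs showed no common direction.

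Among the 10 dim Meg3 probe sets the highest difference was at 1428765_at. Its signals were 10.3 and 10.6 in the knockdown, against 0.7 and 1.3 in the control, a difference of 0.64. It was the only one of the 27 dim probe sets to pass in the fit without a filter (adjusted p = 0.0491, limma), in which 11.7% of all probe sets passed. Other Meg3 probe sets went the other way or overlapped. At 1436057_at signals were 2.4 and 4.3 in the knockdown, against 3.3 and 14.0 in the control, and at 1429256_at they were 10.0 and 10.5 in the knockdown, against 10.9 and 12.8 in the control. At 1426758_s_at they were 16.6 and 2.4 in the knockdown, against 22.2 and 1.3 in the control, so the replicates of each group were further apart than the groups.

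Rian had 4 probe sets, all below the filter, of which 2 were higher and 2 lower. At 1440001_at signals were 10.3 and 10.4 in the knockdown, against 4.2 and 8.1 in the control, with no overlap. At 1428055_at they were 2.4 and 1.5 in the knockdown, against 9.0 and 2.3 in the control, with overlap. Mirg had 1 probe set higher and 1 lower. Its 1457030_at read 8.3 and 11.7 in the knockdown, against 1.4 and 12.2 in the control. Its 1440097_at read 0.9 and 11.3 in the knockdown, against 17.2 and 2.4 in the control, so the arrays of both groups were mixed at both.

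Miat passed the filter at 1455325_at, where signals were 28.1 and 23.6 in the knockdown, against 16 and 16.5 in the control. Both knockdown arrays were above both control arrays, yet the difference of 0.37 ± 0.23 did not pass (adjusted p = 0.237, limma). At the dim 1458903_at Miat read 1.0 and 12.9 in the knockdown, against 9.5 and 4.4 in the control, with the knockdown arrays on either side.

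Kcnq1ot1 had 6 probe sets, all below the filter with signals of 0.2 to 14.4, of which 1 was higher, 4 lower and 1 equal. At 1441588_at signals were 1.0 and 2.9 in the knockdown, against 7.2 and 7.5 in the control, a difference of -0.38 with no overlap. At 1458161_at the groups were apart the other way, with 6.3 and 3.4 in the knockdown, against 1.2 and 2.0 in the control. Snhg11 was below the filter at both probe sets. At 1437311_at it read 7.6 and 2.6 in the knockdown, against 19.5 and 1.6 in the control, and at 1434292_at 2.0 and 1.1 in the knockdown, against 0.5 and 0.2 in the control.

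Over the 27 dim probe sets of all 8 RNAs, 11 were higher, 15 lower and 1 equal. Their median difference was -0.018, against -0.0089 over all 22512 probe sets below the filter. The median SD between replicates on the log2 scale was 0.20 for these 27 and 0.21 for all dim probe sets. For the 9 tested ones it was 0.24, against 0.11 over all tested probe sets. From their control levels the scale allows differences no lower than -0.86 to -0.031, depending on the probe set, and at 4 of the 27 a fall as large as that of Malat1 at 1436202_at was possible at all.

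**Figure D5:**
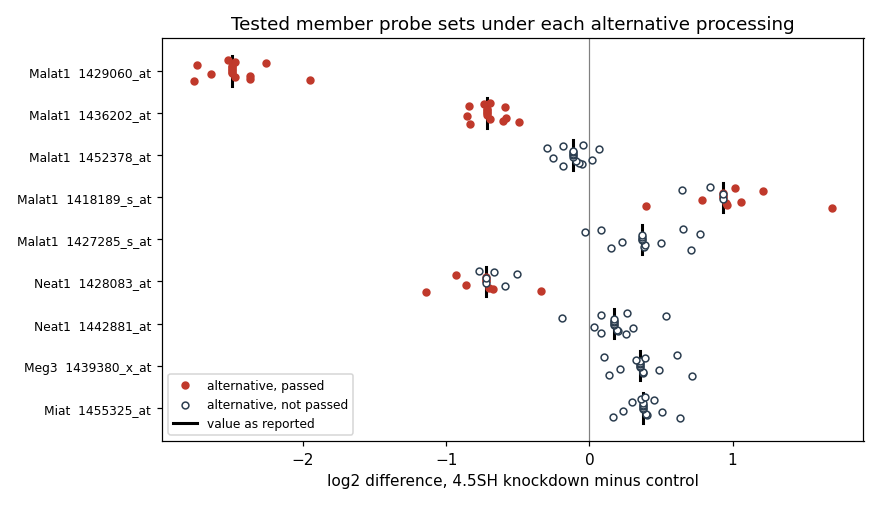
Each row is 1 of the 9 tested probe sets of the 8 RNAs, and each point its log2 difference, knockdown minus control, under 1 alternative processing. Filled points passed the adjusted p threshold and open points did not, and black bars mark the values as reported. The points of Malat1 1429060_at and 1436202_at are all filled, and those of 1418189_s_at and of Neat1 1428083_at are mixed.

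Other noncoding RNAs are given for comparison, each at its brightest tested probe set. Of 49 listed, 36 had a probe set and 27 were tested. Of these 3 rose, 14 fell and 10 did not pass, with a median of -0.30, against -0.17 over 11814 genes, of which 8.95% were called higher and 32.9% lower. Pvt1, a long noncoding RNA beside Myc, read 605.3 and 624.6 in the knockdown, against 1704.7 and 1658.1 in the control, and fell by 1.43 ± 0.07 (adjusted p = 2.09e-08, limma). In contrast to Malat1, all 4 tested Pvt1 probe sets were lower. Dleu2, the host of the miR-15a and miR-16-1 cluster, read 65.8 and 70.3 in the knockdown, against 248.8 and 239.7 in the control, and both of its tested probe sets fell.

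The small nucleolar RNA host Snhg17 fell by 0.86 ± 0.07 (adjusted p = 7.89e-07, limma). The 3 rises were at Xist, Tug1 and Norad. Xist, the RNA that coats the inactive X chromosome, rose by 2.69, called at 1 of 3 tested probe sets. That probe set read 164.3 and 190.9 in the knockdown, against 15.3 and 12.5 in the control, and passed the filter only through the knockdown arrays. Tug1 rose by 0.57 ± 0.09 (adjusted p = 0.000274, limma), called at 2 of 3 tested probe sets. Norad, a cytoplasmic RNA that binds Pumilio proteins, rose by 0.47 ± 0.09 (adjusted p = 0.00129, limma), called at 1 of 2. With quantile scaling 4 rose and 12 fell, where 3817 of all 22525 tested probe sets were called higher and 3768 lower.

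Protein-coding genes of the imprinted domains that hold Meg3 and Kcnq1ot1 moved in both directions. Of 21 listed, 16 had a probe set and 13 were tested, of which 3 rose, 6 fell and 4 did not pass, where 8.95% of all genes were called higher and 32.9% lower. Their median was -0.23, against -0.17 over all genes. In the Kcnq1ot1 domain Phlda2, an imprinted gene that restrains placental growth, read 11.5 and 23.7 in the knockdown, against 56.9 and 61.5 in the control, and fell by 1.19 ± 0.22 (adjusted p = 0.000921, limma). Tssc4, a factor in spliceosome assembly from the same domain, fell by 0.65 ± 0.09 (adjusted p = 7.39e-05, limma). Tspan32 there rose by 0.48 ± 0.17 (adjusted p = 0.0405, limma), which was called at 1 of its 2 tested probe sets.

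Near Meg3, the transcription factor Yy1 rose by 0.39 ± 0.07 (adjusted p = 0.000635, limma) and the phosphatase subunit Ppp2r5c by 0.49 ± 0.11 (adjusted p = 0.0026, limma), each at 1 of several tested probe sets. Dlk1, the paternally expressed coding gene of the domain, read 31.4 and 45.4 in the knockdown, against 19.4 and 22.4 in the control, and its difference of 0.55 ± 0.22 did not pass (adjusted p = 0.0694, limma). The list had 3 rises and 4 falls with quantile scaling and 1 rise and 6 falls with spike-in centring. Of all 22525 tested probe sets 3817 were called higher and 3768 lower with quantile scaling, and 1042 and 8008 with spike-in centring.

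Of 21 listed proteins of paraspeckles and nuclear speckles, 20 had a probe set and 19 were tested at the brightest one. At that probe set 10 fell, 0 rose in this limma fit (2, Tardbp and Hnrnpk, were higher at an unadjusted p under 0.05) and 9 did not pass, with a median of -0.22, against -0.17 and 8.95% higher and 32.9% lower over all genes. Over all 67 tested probe sets of these genes, however, 13 were called higher, in 7 genes, and 20 lower, in 12 genes. Of all tested probe sets on the array 9.76% were called higher and 25.8% lower. Son, a speckle scaffold protein that counts among the 10, had 4 of its 7 tested probe sets higher and 1 lower. The splicing factor Srsf2 read 3517.2 and 3842.1 in the knockdown, against 5958.2 and 6152.7 in the control, and fell by 0.72 ± 0.05 (adjusted p = 5.33e-07, limma), which was called at 2 of its 4 tested probe sets. Hnrnph3 fell by 0.97 ± 0.08, Ewsr1 by 0.55 ± 0.05 and the cleavage factor subunit Cpsf7 by 0.54 ± 0.07.

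Of the core paraspeckle proteins that bind Neat1, Nono fell by 0.28 ± 0.05, whereas Sfpq (0.13) and Pspc1 (-0.22) did not pass. Of the 5 tested Sfpq probe sets 1 was called higher, and with quantile scaling its brightest one passed as higher (0.30, adjusted p = 0.00498, limma). The one-sided count depends on the scaling, since 5 of these genes rose and 8 fell with quantile scaling, 4 rose and 8 fell with centring on the tested probe sets, and 13 fell with spike-in centring. Of all 22525 tested probe sets 3817 were called higher and 3768 lower with quantile scaling. The numbers were 3773 and 3985 with centring on the tested probe sets, and 1042 and 8008 with spike-in centring.

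The genes whose profile over the 4 arrays lay nearest to each RNA were named by Euclidean distance on centred log2(signal + 16) values among 11810 genes. For Malat1 at 1429060_at they were Gab2 (0.0558), Plagl1 (0.278) and Hspb11 (0.301). Gab2 read 29.0 and 16.2 in the knockdown, against 213.4 and 201.2 in the control. For Neat1 at 1428083_at they were Siva1 (0.0631), Nhej1 (0.0766) and Csf3 (0.0809), and for Meg3 at 1439380_x_at they were Myl6b (0.0354), Gstt1 (0.0834) and Plxnb3 (0.0897). With 4 arrays in 2 groups, such nearness describes these arrays alone.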

How the data were processed

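The authors deposited intensities, as linear MAS5 signals with 1 value for each probe set, per the submitters' processing notes. Scaling target and software version: not given in the sources used here. Of 45101 probe sets 64 were controls, and of the other 45037 there were 34945 with 1 gene symbol, 932 with several and 9160 with none. By Entrez identifier 34741 matched a RefSeq gene table (GRCm38.p6), the source of the microRNA sequences and coordinates. Values were taken as log2(signal + 16) with no further scaling. Probe sets with a mean signal of at least 16.925, the median, were tested, 22525 in all.

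Both groups of 2 arrays were compared with limma 3.58.1 in R 4.3.3 (lmFit and trended eBayes, 13.6 degrees of freedom in all, two-sided p adjusted by Benjamini-Hochberg over all tested probe sets at 0.05), and pairs of probe sets of 1 gene likewise over 8440 pairs. An exact permutation test of 2 against 2 arrays cannot give a p below 0.333. Depth does not apply to arrays, whose number limits the precision. On simulated data limma called 79 of 100 probe sets changed by a log2 of 1, with 5 false calls among 22525. It called 58 of 100 such pairs. Only 100 other probe sets, with a smaller change, were altered there, whereas 8010 were called in the real data. The simulated recovery and false calls therefore do not carry over to the real fit. The tested probe sets of the studied RNAs also varied more between replicates (median SD 0.24) than all tested ones (0.11).

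All probe sets of the 8 RNAs are rows in the plot of log2 differences, and all tested ones were named in the text. Of the dim probe sets of Meg3, Rian and Kcnq1ot1 only some were named, by no stated rule. Of each other list the 4 genes with the smallest p and any exceptions of 5 or fewer were named, and 3 nearest genes for Malat1, Neat1 and Meg3. The RNAs and lists were chosen with earlier results of these data known. Same-numbered arrays did not deviate together (correlation 0.00715), so the numbers were not used as pairs. Alternatives were pseudocounts of 1 and 64, 4 scalings, other filters and thresholds, no trend, a replicate block and leaving out each array. Python 3.11.15 with matplotlib 3.10.9 drew the figures.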

Additional observations from a re-analysis of the deposited data

How the results depend on the processing

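No single value reversed a call, and over the 9 tested probe sets 125 values kept their side of the threshold and 10 lost it, all at Malat1 1418189_s_at and Neat1 1428083_at. Of the values of the 27 dim probe sets 381 stayed within the spread between replicates and 51 moved by more. Among the 27 dim probe sets 15 had the other sign under at least 1 alternative, and among the 9 tested ones 3, none of which passed: Malat1 1452378_at was 0.066 without knockdown replicate 1 and 0.016 with arrays centred on tested probe sets, Malat1 1427285_s_at was -0.034 without knockdown replicate 2, and Neat1 1442881_at was -0.19 without knockdown replicate 1. The number of changed probe sets (8010) was 5286 with no filter, 5132 with no intensity trend and 5942 to 6971 when 1 array was left out. With quantile scaling 3817 were higher and 3768 lower, with centring on the tested probe sets 3773 and 3985, and with spike-in centring 1042 and 8008, against 2199 and 5811 as reported. Probe sets of the 8 RNAs that passed (4) numbered 1 among the brightest 25%, 2 at a threshold of 0.01 and 2 to 4 when 1 array was left out. Their median difference was 0.12 after centring on the tested probe sets, -0.15 with spike-in centring and -0.035 to 0.082 when 1 array was left out. Unequal pairs (872) numbered 442 with a pseudocount of 1, 1508 with 64, 4 without a trend, 269 at a threshold of 0.01 and 211 to 951 when 1 array was left out. For the 8 RNAs 0 of the pairs passed without a trend, and 0 among the brightest 25%, where only Malat1 1429060_at was bright enough. Without a trend 11 other noncoding RNAs and 6 speckle proteins passed. Of the imprinted-domain genes 5 passed with no filter and 5 among the brightest 25%, against 6 to 7 when 1 array was left out. With the replicate number as a block 8522 probe sets, 1179 pairs, 4 probe sets and 4 pairs of the 8 RNAs passed, and since the numbers do not pair the samples this is a check only. A filter on the mean of log2 values, chosen after seeing the data, gave 8002 probe sets and left Malat1 1427285_s_at untested. Low signal limits what can be said of the 27 dim probe sets, and the cause of each of these changes was not tested.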
